A study of Mus musculus with 18 samples.

Results

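The protein-coding mouse genes for translation initiation, elongation and release factors were followed through the 18 RNA-seq libraries of a siRNA knockdown (KD) experiment in N2A (Neuro-2a) cells, a mouse neuroblastoma line. Members were chosen by symbol alone. They are the genes whose GENCODE symbol starts with Eif or Eef and a digit, together with *Etf1*, *Gspt1*, *Gspt2*, *Pabpc1* and *Pabpc4*, and without the eIF2 kinases *Eif2ak1* to *Eif2ak4* and without *Eif4e2*. This gave 87 of the 55414 genes counted, of which 66 passed the filter on low counts that left 17901 genes to test. The other 21 are accounted for near the end.

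Translation starts when a small ribosomal subunit carrying eIF1, eIF1A, eIF3 and the initiator tRNA bound to eIF2 and GTP is loaded onto the capped mRNA by eIF4E, eIF4G and the helicase eIF4A, and scans to a start codon. eIF5 and eIF5B then complete initiation, eEF1A delivers each aminoacyl-tRNA, eEF2 moves the ribosome by a codon, and eRF1 with eRF3 frees the finished protein at a stop codon. The mRNAs of the elongation factors are among the most abundant of a growing cell, and the eIF2 and eIF4E steps are the main points at which stress and growth signals set the rate of translation. *Fmr1* encodes FMRP, an RNA-binding protein that represses translation, and *Zfp598* encodes a ubiquitin ligase that recognises collided ribosomes.

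Cells were lysed 72 h after transfection, and total RNA was depleted of rRNA before sequencing. The 3 conditions were Scramble KD (a control siRNA), *Fmr1* KD and *Zfp598* KD, each with 2 independent siRNAs called siRNA A and siRNA B, and 3 libraries per siRNA from a knockdown in triplicate. Whether the triplicates were separate cultures is not said, so p-values measure the spread between these libraries, which may be technical. No library came from cells without a siRNA, and the 6 libraries of a condition share only 2 siRNAs, so n = 6 does not stand for 6 independent knockdown reagents. The study asked which mRNAs rise when either protein is depleted, and the comparisons below ask how the mRNAs of the translation machinery stood in the same libraries.

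Levels are read counts scaled to a common library size after TMM normalisation (CPM), and describe RNA only, not protein or translation rate. A member is said to have passed, risen or fallen when its Benjamini-Hochberg adjusted p over all 17901 genes was under 0.05 in edgeR's quasi-likelihood test. Fold changes are on the log2 scale. In whole cultures, fewer cells of a type and less RNA per cell cannot be told apart.

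Total counts ran from 7674724 to 15414590 per library. *Fmr1* was changed by -1.60 with siRNA A and -1.30 with siRNA B, and *Zfp598* by -1.54 and -1.52 (log2, each siRNA against the Scramble siRNA of the same letter), so both targets went as labelled. *Fmr1* was also lower with *Zfp598* siRNA B, at -0.33 (edgeR adjusted p = 0.0360), and not with *Zfp598* siRNA A, at 0.29 (edgeR adjusted p = 0.108). All 10 neuroblastoma markers were present in each siRNA group, while 7 fibroblast markers summed to 6.46 to 19.1 CPM and 5 macrophage markers to 1.11 to 3.36 CPM, with *Adgre1* at 0 in every library. 3 libraries stood apart. In *Zfp598* KD replicates A2 and A3, which had the lowest totals, 1 feature without a GENCODE M39 entry took 15.2% and 25.8% of the counts, against 5.00% to 11.1% in the other 16 libraries. *Fmr1* KD replicate B1 alone held more than 2 counts of Y-linked genes (25 of *Ddx3y*, 85 of *Uty* and 6 of *Kdm5d*), and its summed level of 9 stem cell markers was 65.7 CPM against 8.01 to 22.0 CPM elsewhere, with *Dppa3* and *Utf1* at 0 in the other 5 siRNA groups. The summed level of 30 proliferation genes was 1489 to 1652 CPM with Scramble siRNA A and 2812 to 3253 CPM with Scramble siRNA B, and 28 of the 30 were higher with siRNA B. The proliferation genes thus differed between the controls together with the members described below, and their part in those results was not tested.

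By level per length, the members ran from elongation factors down to rare paralogs. Taking the summed length of all annotated exons, *Eef2* stood first at 1728 CPM per kb and *Eef1a1* second at 1421 CPM per kb, followed by *Eif1* (308), *Eef1g* (199) and *Eif4b* (171 CPM per kb). With the length of the canonical transcript the first 2 changed places, at 3934 CPM per kb for *Eef1a1* and 2146 for *Eef2*, and *Eif4b* became the eighth. As plain CPM their ranges over the 18 libraries overlapped, 5905 to 9279 for *Eef1a1* and 5623 to 7498 for *Eef2*. Together the 87 genes took 2.02% to 2.95% of the counts of a library. The steadiest was *Gspt1*, which encodes the release factor eRF3a, with a coefficient of variation of 7.18% over the 18 libraries. At the other end, *Eif4ebp3* varied by 44.8% but lay at 0.176 to 1.41 CPM, a level at which counting error is large.

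**Figure D1:**
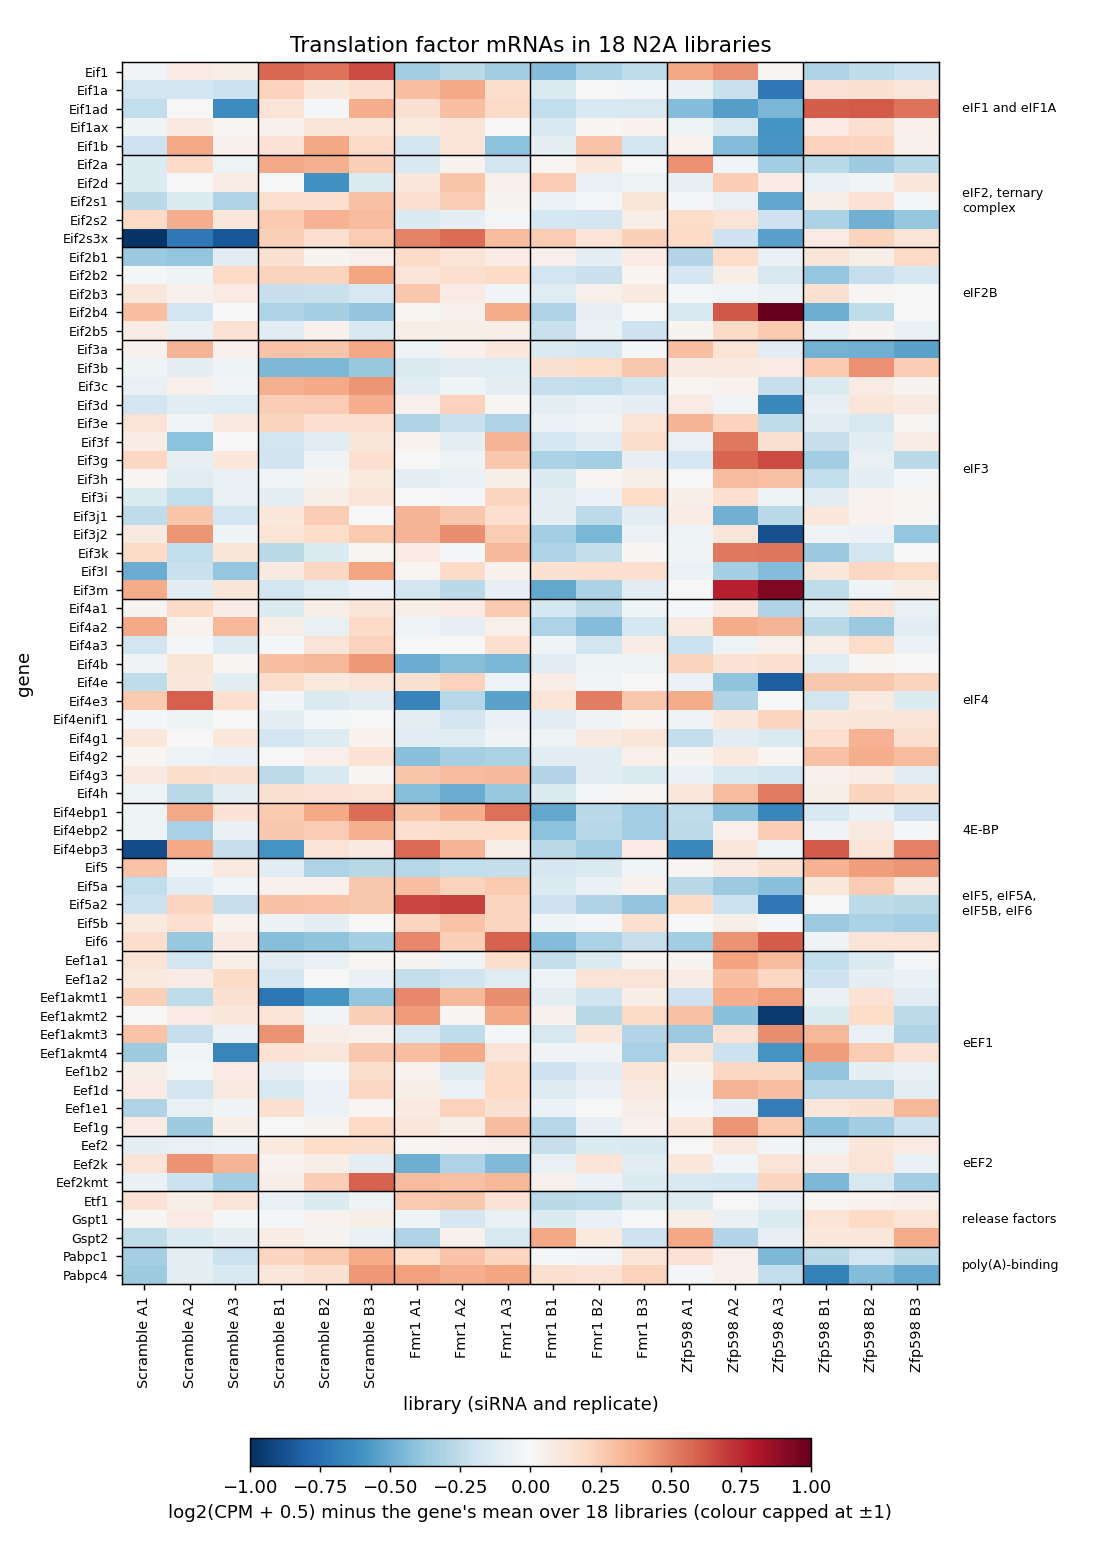
Colour shows log2(CPM + 0.5) of each of the 66 tested genes (rows, grouped by role) in each of the 18 libraries (columns, in groups of 3 by siRNA), minus the gene's mean over the libraries, capped at 1 in either direction. Rows such as *Eif1* and *Pabpc4* shift by siRNA as well as by condition, *Eif2s3x* is lowest in the 3 Scramble siRNA A libraries, and *Zfp598* A2 and A3 differ from *Zfp598* A1 in several rows, among them *Eif3m* and *Eif2b4*.

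Among the 6 siRNAs, 50 of the 66 members differed in the 6-group test, where 63.3% of all tested genes did. With both siRNAs of a target pooled, few did. In *Fmr1* KD 4 of 66 passed (6.54% of all tested genes, 2.73% higher and 3.80% lower), and all 4 were lower: *Eif1*, *Eif4b*, *Eif2s2* and *Eif3c*. In *Zfp598* KD 2 of 66 passed (1.96% of all tested genes, 0.916% higher and 1.04% lower), *Eif3b* higher and *Eif2s2* lower. Both counts are near what the share over all tested genes gives for 66 genes. The groups' libraries did not overlap for 3 members in *Fmr1* KD (5.98% of all tested genes), *Eif1*, *Eif4b* and *Eif2s2*, and for 2 in *Zfp598* KD (1.87%), *Eif3b* and *Eif4ebp1*. The pooled change furthest from 0 was that of *Eif1* in *Fmr1* KD (-0.67) and that of *Eif4ebp1* in *Zfp598* KD (-0.58 on the log2 scale). Both comparisons use the same 6 Scramble libraries.

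Taken siRNA by siRNA against the Scramble siRNA of the same letter, more members passed. *Fmr1* siRNA A gave 13 higher and 10 lower (all tested genes 23.6% in either direction, 10.0% higher and 13.6% lower), and *Fmr1* siRNA B gave 2 higher and 12 lower (22.7%, with 11.3% in each direction). *Zfp598* siRNA A gave 2 higher and 2 lower (11.9%, with 6.30% higher and 5.64% lower), and *Zfp598* siRNA B gave 6 higher and 16 lower (26.8%, with 12.4% higher and 14.4% lower). The median log2 fold changes of the 66 members were 0.10, -0.13, 0.07 and -0.06 in this order, against 0.01, 0.00, 0.01 and -0.01 over all tested genes. A single member passed with a change of more than 2-fold in these 4 comparisons, *Eif2s3x* with *Fmr1* siRNA A. The *Zfp598* siRNA A count depended on 1 library. Without replicate A1 it was 14 higher and 8 lower, and with only the 6 compared libraries in the fit it was 0, with 4 members at an unadjusted p under 0.05. DESeq2 with all 18 libraries gave 11.

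*Eif1* encodes eIF1, which keeps the scanning ribosome from accepting poor start codons. The gene lies on chromosome 11 of GRCm39, from 100210670 to 100212922 on the forward strand. The levels were 639, 689.9 and 685 CPM with Scramble siRNA A, 513, 541 and 514 CPM with *Fmr1* siRNA A and 852, 895 and 662 CPM with *Zfp598* siRNA A. With the other siRNAs they were 970.4, 953 and 1027 CPM with Scramble siRNA B, 484, 523 and 547 CPM with *Fmr1* siRNA B and 529.5, 548 and 562 CPM with *Zfp598* siRNA B. Every *Fmr1* KD library was below every Scramble library, the *Zfp598* siRNA B libraries overlapped the *Fmr1* KD range, and those of *Zfp598* siRNA A overlapped Scramble siRNA A. The pooled change in *Fmr1* KD was -0.67 (standard error 0.143, edgeR adjusted p = 0.00794), a fall of 37.1%. The two-sided exact permutation test of 6 against 6 gave p = 0.00216, the smallest it can give, which any gene without overlap gets. It takes the 6 libraries of a condition as independent, though they share 2 siRNAs. By siRNA the change was -0.36 (edgeR adjusted p = 0.00657) with *Fmr1* siRNA A and -0.93 (edgeR adjusted p = 5.10e-07) with siRNA B. *Zfp598* siRNA B changed *Eif1* by -0.85 (edgeR adjusted p = 1.50e-06), whereas *Zfp598* siRNA A gave 0.26 (edgeR adjusted p = 0.0720), and the difference between those effects passed, at -1.11 (edgeR adjusted p = 4.85e-06). *Eif1* also differed between the Scramble siRNAs, by 0.55 (edgeR adjusted p = 1.88e-04) in favour of siRNA B, so that the fall with siRNA B was measured from a higher control. The change with each *Fmr1* siRNA kept its call in all 24 alternative analyses, and the pooled call was lost only with the counts of each siRNA summed, which leaves 2 values a condition. Long noncoding RNAs annotated on the opposite strand cover 39.1% of its exon bases, and the strand setting of the counting is not given in the sources used here.

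*Eif1a* rose with *Fmr1* siRNA A, at 0.49 (edgeR adjusted p = 0.00233). *Eif1ad* rose with *Fmr1* siRNA A, at 0.50 (edgeR adjusted p = 0.0116), and with *Zfp598* siRNA B, at 0.43 (edgeR adjusted p = 0.0216). *Eif1ad*, a nuclear relative of eIF1A, had the largest difference past the threshold between the *Zfp598* siRNAs, at 1.10 (standard error 0.146, edgeR adjusted p = 1.22e-05), or 2.15-fold. Its levels were low, at 10.0, 9.17 and 9.78 CPM with *Zfp598* siRNA A and 21.1, 21.1 and 20.1 CPM with *Zfp598* siRNA B, against 11.5, 13.6 and 8.64 CPM and 14.9, 13.5 and 17.7 CPM with Scramble siRNA A and B. *Banf1* overlaps its exons on the opposite strand.

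Because eIF1 and eIF5 act on how strictly the start codon is read, the start codons of the members were set side by side. Each line gives 20 bases of the canonical GENCODE M39 transcript on GRCm39, 12 before the start codon and 8 from its first base, with the start codon in capitals. The bases that matter most around an AUG are a purine 3 bases before it and a G directly after it. The first 3 genes have neither, the next 4, which have at least 1 of them, are *Eif3a* and the other members that passed in a pooled comparison, and the last 4 are shown as abundant or strongly changed members.
Eif1: gaatcgtatcgtATGtccgc
Eif1b: cactagtgtcgcATGtccac
Eif3b: cagcgcgggcccATGcagga
Eif2s2: cgaactacagccATGtccgg
Eif3a: cgtaccgtcaagATGccggc
Eif3c: agcgccgtcgccATGtcgcg
Eif4b: ccctctcccaacATGgcggc
Eif2s3x: tctccgagcaagATGgctgg
Eif5: taataagccaaaATGtctgt
Eef1a1: ttcaaagcaaaaATGggaaa
Eef2: ccatccgccaccATGgtgaa

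Of 64 tested members with such a record, 4 had neither favourable base (6.25%), *Eif1*, *Eif1a*, *Eif1b* and *Eif3b*, where 710 of 12559 tested protein-coding genes did (5.65%). Both bases were present in 33 of the 64 (51.6%, against 46.1% of all). At least 1 ATG lay upstream in the leader of 27 of 64 (42.2%, against 62.2%). Of the 4 genes with neither base, *Eif1* fell and *Eif3b* rose in the pooled comparisons, and *Eif1a* and *Eif1b* did not pass there. These are matches of letters in 1 annotated transcript per gene, and no value here measures start codon use.

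eIF2 is the GTP-binding complex that carries the initiator tRNA, and its alpha, beta and gamma subunits are encoded by *Eif2s1*, *Eif2s2* and, on the X chromosome, *Eif2s3x*. The 3 subunit mRNAs did not move together. *Eif2s2*, on chromosome 2 from 154713330 to 154734855 on the reverse strand, was the only member called in both pooled comparisons. Its levels were 183, 204 and 171 CPM with Scramble siRNA A, 144, 149 and 157 CPM with *Fmr1* siRNA A and 181, 174 and 137 CPM with *Zfp598* siRNA A. With siRNA B they were 190.4, 202 and 197 CPM with Scramble siRNA B, 140.4, 139.6 and 166 CPM with *Fmr1* siRNA B and 127, 114 and 121 CPM with *Zfp598* siRNA B. All 6 *Fmr1* KD libraries lay below all 6 Scramble libraries, and in *Zfp598* KD the siRNA B libraries were lowest of all while those of siRNA A overlapped Scramble siRNA A. The pooled change was -0.36 (standard error 0.106, edgeR adjusted p = 0.0468) in *Fmr1* KD and -0.43 (standard error 0.107, edgeR adjusted p = 0.0411) in *Zfp598* KD. *Fmr1* siRNA A, *Fmr1* siRNA B and *Zfp598* siRNA B each lowered it, with log2 fold changes of -0.31, -0.40 and -0.70 (edgeR adjusted p = 0.0261, 0.00507 and 2.62e-05), and *Zfp598* siRNA A gave -0.18 (edgeR adjusted p = 0.266). Both pooled calls were near the threshold. Leaving out 1 library ended the *Fmr1* KD call for 10 of 18 libraries and the *Zfp598* KD call for 11 of 18, with edgeR adjusted p of up to 0.0980 and 0.114.

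*Eif2s3x*, on chromosome X from 93232313 to 93256468 on the reverse strand, showed the largest change of any member against a control, and the control siRNAs themselves differed for it. Its levels were 55.9, 67.0 and 61.2 CPM with Scramble siRNA A, 156, 163 and 137 CPM with *Fmr1* siRNA A and 127, 95.8 and 75.8 CPM with *Zfp598* siRNA A. With siRNA B they were 130.1, 124 and 132 CPM with Scramble siRNA B, 132, 122 and 130.3 CPM with *Fmr1* siRNA B and 117, 129 and 122 CPM with *Zfp598* siRNA B. The 3 Scramble siRNA A libraries were the lowest of the 18, and all the other groups lay higher, so that *Eif2s3x* was 2.09-fold higher with Scramble siRNA B than with Scramble siRNA A, a log2 difference of 1.07 (standard error 0.126, edgeR adjusted p = 4.40e-06). Against Scramble siRNA A it rose by 1.31 (edgeR adjusted p = 2.90e-07) with *Fmr1* siRNA A and by 0.71 (edgeR adjusted p = 0.00112) with *Zfp598* siRNA A. Against Scramble siRNA B the values were -0.01 (edgeR adjusted p = 0.978) with *Fmr1* siRNA B and -0.07 (edgeR adjusted p = 0.744) with *Zfp598* siRNA B. With all 6 Scramble libraries as control, the *Fmr1* siRNA A call remained and that of *Zfp598* siRNA A did not. *Eif2s1* rose with *Fmr1* siRNA A by 0.39 (edgeR adjusted p = 0.00997), from 101 ± 6.55 CPM to 133 ± 10.4 CPM (SD, n = 3), and was 0.45 higher with Scramble siRNA B than with siRNA A (edgeR adjusted p = 0.00398). *Eif2a*, which encodes a factor unrelated to the eIF2 alpha subunit that can also deliver initiator tRNA, fell with *Zfp598* siRNA B.

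eIF2B recharges eIF2 with GTP and is the step that phosphorylated eIF2 blocks. Of its 5 subunit genes, *Eif2b1* rose with *Fmr1* siRNA A, and *Eif2b2* fell with *Fmr1* siRNA B and *Zfp598* siRNA B. *Eif2b3*, *Eif2b4* and *Eif2b5* passed with none of the 4 KD siRNAs. *Eif2b1* with *Fmr1* siRNA A (31.0, 29.9 and 28.7 CPM) lay above Scramble siRNA A (20.9, 20.7 and 25.1 CPM). It overlapped Scramble siRNA B (30.2, 27.7 and 28.2 CPM). *Eif2b2* with *Fmr1* siRNA B (38.4, 37.5 and 44.6 CPM) overlapped Scramble siRNA A (43.4, 42.7 and 50.6 CPM). With *Zfp598* siRNA B, *Eif2b2* lay below both Scramble groups. *Eif2b4* had the largest difference between the *Zfp598* siRNAs in the lower direction, -0.86 (standard error 0.220, edgeR adjusted p = 0.00499), at 30.2, 52.1 and 76.0 CPM with siRNA A and 23.8, 28.1 and 33.7 CPM with siRNA B. Replicates A2 and A3 held the 2 highest values of the 18, and with A1 as the only *Zfp598* siRNA A library the difference was -0.07.

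eIF3 is the largest initiation factor and holds the small subunit, eIF4G and the mRNA together. The genes for 2 of its core subunits, *Eif3a* and *Eif3b*, moved in opposite directions with the same B siRNAs. *Eif3b* lies on chromosome 5 from 140405057 to 140429117 on the forward strand and *Eif3a* on chromosome 19 from 60749551 to 60779149 on the reverse strand. For *Eif3b* the levels were 289.7, 280.5 and 289.9 CPM with Scramble siRNA A, 270.3, 277 and 274 CPM with *Fmr1* siRNA A and 317, 317 and 315 CPM with *Zfp598* siRNA A. With siRNA B they were 218, 218 and 229 CPM with Scramble siRNA B, 331, 339 and 359 CPM with *Fmr1* siRNA B and 357, 409 and 356 CPM with *Zfp598* siRNA B. Scramble siRNA B gave the 3 lowest libraries, and *Zfp598* siRNA B had the highest mean with *Fmr1* siRNA B overlapping it. All 6 *Zfp598* KD libraries were above all 6 Scramble libraries (two-sided exact permutation test of 6 against 6, p = 0.00216, fixed by the lack of overlap). The pooled change was 0.44 (standard error 0.106, edgeR adjusted p = 0.0344) in *Zfp598* KD and 0.28 (edgeR adjusted p = 0.122) in *Fmr1* KD. *Eif3b* rose by 0.63 (edgeR adjusted p = 2.03e-06) with *Fmr1* siRNA B and by 0.75 (edgeR adjusted p = 2.47e-07) with *Zfp598* siRNA B, and changed by -0.07 (edgeR adjusted p = 0.553) and 0.14 (edgeR adjusted p = 0.200) with the A siRNAs. The pooled *Zfp598* KD call was lost without 1 library in 7 of 18 cases, with edgeR adjusted p of up to 0.0921, and both siRNA B calls held in all 24 alternatives.

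*Eif3a* stood at 467, 572 and 468 CPM with Scramble siRNA A, 439, 466 and 487 CPM with *Fmr1* siRNA A and 559, 498 and 422 CPM with *Zfp598* siRNA A. With siRNA B it stood at 553, 549 and 591 CPM with Scramble siRNA B, 413, 401 and 448 CPM with *Fmr1* siRNA B and 326, 324 and 313 CPM with *Zfp598* siRNA B. The 3 *Zfp598* siRNA B libraries were below the other 15, and the A siRNAs overlapped their Scramble control. Its log2 fold change was -0.81 (standard error 0.0977, edgeR adjusted p = 4.34e-06) with *Zfp598* siRNA B and -0.43 (edgeR adjusted p = 0.00303) with *Fmr1* siRNA B. With *Zfp598* siRNA A it was -0.03 (edgeR adjusted p = 0.898), and the difference between the *Zfp598* siRNAs passed at -0.79 (edgeR adjusted p = 3.39e-04). Side by side, *Eif3b* and *Eif3a* stood at 374 ± 30.3 CPM and 321 ± 7.14 CPM (SD, n = 3) with *Zfp598* siRNA B, against 222 ± 6.53 CPM and 564 ± 23.0 CPM (SD, n = 3) with Scramble siRNA B.

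*Eif3c*, another core subunit gene, had levels of 380.0, 414 and 393 CPM with Scramble siRNA A, 372, 388 and 377 CPM with *Fmr1* siRNA A and 406, 411 and 342 CPM with *Zfp598* siRNA A. The B siRNAs gave 514, 520.0 and 543 CPM with Scramble siRNA B, 342, 337 and 349.8 CPM with *Fmr1* siRNA B and 363, 424 and 408 CPM with *Zfp598* siRNA B. Scramble siRNA B was above every other group, and the other 5 groups lay below it, lowest with *Fmr1* siRNA B. The pooled change in *Fmr1* KD was -0.35 (standard error 0.0976, edgeR adjusted p = 0.0348), with overlapping libraries, and by siRNA it was -0.62 (edgeR adjusted p = 1.25e-05) with siRNA B and -0.06 (edgeR adjusted p = 0.646) with siRNA A. Leaving out 1 library ended the pooled call for 8 of 18. Of the other eIF3 genes, *Eif3d* fell with *Fmr1* siRNA B, and *Eif3e* fell and *Eif3l* rose with *Fmr1* siRNA A. *Eif3d* with *Fmr1* siRNA B (214, 219 and 215 CPM) was below Scramble siRNA B (272, 273 and 296 CPM). It was not below Scramble siRNA A (202, 213 and 211 CPM). *Eif3l* with *Fmr1* siRNA A (183, 207 and 187 CPM) overlapped Scramble siRNA B (193, 210 and 238 CPM). *Eif3e* with *Fmr1* siRNA A (359, 380 and 359 CPM) lay below both Scramble groups. The totals over the 14 were 1 higher and 1 lower with *Fmr1* siRNA A, 1 higher and 3 lower with *Fmr1* siRNA B, and 1 higher and 2 lower with *Zfp598* siRNA B, which is 14.3%, 28.6% and 21.4% of the 14 against 23.6%, 22.7% and 26.8% of all tested genes. *Eif3m* and *Eif3g* were lower for *Zfp598* siRNA B than for its siRNA A, with differences of -0.69 and -0.62 on the log2 scale (edgeR adjusted p = 0.00343 and 0.00543), and with A1 as the only *Zfp598* siRNA A library the differences were -0.06 and -0.05.

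**Figure D2:**
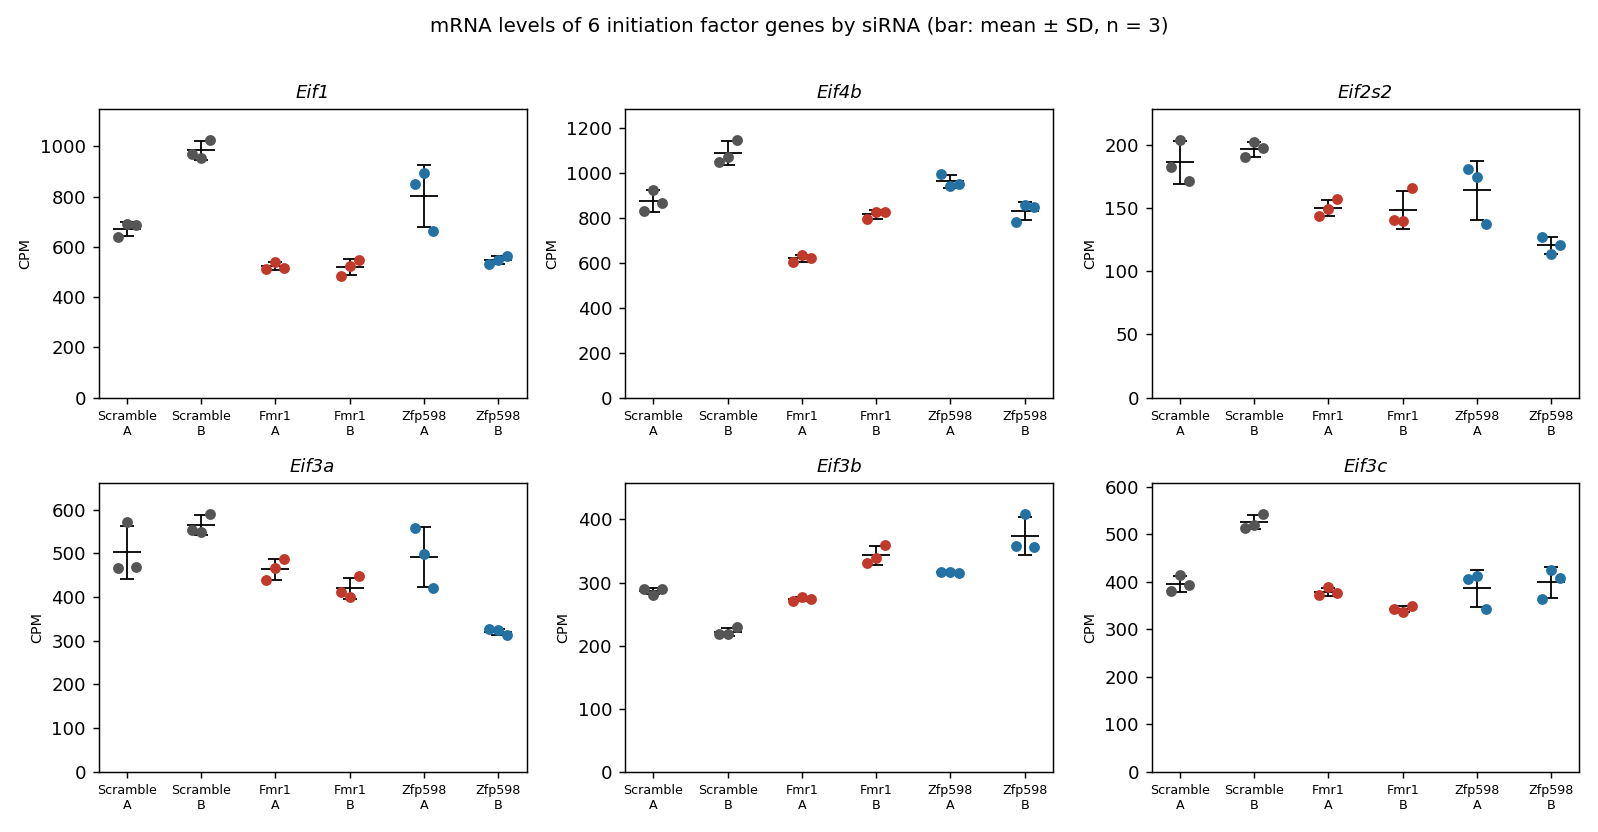
Points give the CPM of each library (3 per siRNA) and bars the mean ± SD (n = 3) for 6 initiation factor genes, with an axis from 0. *Eif1* and *Eif2s2* lie lower with both *Fmr1* siRNAs than with either Scramble siRNA, *Eif4b* lies lower with *Fmr1* siRNA A than anywhere else, and *Eif3a* and *Eif3b* move in opposite directions with *Zfp598* siRNA B.

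Within the cap-binding complex eIF4F and its helpers, *Eif4b* changed with both *Fmr1* siRNAs. eIF4B stimulates the helicase eIF4A. The gene lies on chromosome 15 from 101982075 to 102005614 on the forward strand. The A siRNAs gave 831, 927 and 867 CPM with Scramble siRNA A, 604, 636 and 623 CPM with *Fmr1* siRNA A and 997, 944 and 951 CPM with *Zfp598* siRNA A. The B siRNAs gave 1049, 1073 and 1150.3 CPM with Scramble siRNA B, 795, 829 and 826 CPM with *Fmr1* siRNA B and 784, 859.6 and 850.2 CPM with *Zfp598* siRNA B. The *Fmr1* siRNA A libraries were the lowest 3 of the 18, and those of *Fmr1* siRNA B lay below all Scramble libraries too, if closely below the lowest of Scramble siRNA A. The pooled change in *Fmr1* KD was -0.45 (standard error 0.109, edgeR adjusted p = 0.0160), a fall of 26.8% (two-sided exact permutation test of 6 against 6, p = 0.00216, fixed by the lack of overlap). By siRNA it was -0.49 (edgeR adjusted p = 3.89e-05) and -0.42 (edgeR adjusted p = 2.65e-04), of like size, and the difference between them was 0.08 (edgeR adjusted p = 0.659). With *Zfp598* siRNA B it fell, at -0.39 (edgeR adjusted p = 4.20e-04), and with *Zfp598* siRNA A the change was 0.14 (edgeR adjusted p = 0.223). A lncRNA on the opposite strand covers 30.4% of its exon bases.

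The cap-binding protein gene *Eif4e* passed in no KD comparison, with log2 fold changes of 0.19, -0.12, -0.31 and 0.12 (*Fmr1* siRNA A and B, then *Zfp598* siRNA A and B) and standard errors of 0.129, 0.128, 0.131 and 0.128. Its relative *Eif4e3* was at 25.1, 31.9 and 23.5 CPM with Scramble siRNA A and 13.0, 17.0 and 14.3 CPM with *Fmr1* siRNA A, a log2 change of -0.86 (standard error 0.160, edgeR adjusted p = 4.42e-04). With *Fmr1* siRNA B the change was 0.41 (edgeR adjusted p = 0.0661), and the difference between the siRNAs was 1.27 (edgeR adjusted p = 3.01e-04). For the scaffold genes, *Eif4g1* rose with *Zfp598* siRNA B by 0.32 (edgeR adjusted p = 0.00550), and *Eif4g2*, whose product lacks the eIF4E-binding part, fell with *Fmr1* siRNA A, at -0.32 (edgeR adjusted p = 0.00281) and rose with *Zfp598* siRNA B by 0.26 (edgeR adjusted p = 0.0129). *Eif4g3* fell with *Zfp598* siRNA A, at -0.27 (edgeR adjusted p = 0.0313). The helicase gene *Eif4a1* passed in none of these, at 0.04, -0.18, -0.17 and -0.02 in the same order, whereas *Eif4a2* fell with *Fmr1* siRNA B (-0.37, edgeR adjusted p = 0.0143) and *Zfp598* siRNA B (-0.31, edgeR adjusted p = 0.0317). *Eif4h*, which also aids eIF4A, fell with *Fmr1* siRNA A and rose with *Zfp598* siRNA A by 0.46 (edgeR adjusted p = 0.00256). With A1 as the only *Zfp598* siRNA A library the changes of *Eif4g3* and *Eif4h* were -0.22 and 0.24. With *Zfp598* siRNA A, *Eif4g3* (203, 191 and 187 CPM) overlapped Scramble siRNA B (178, 191 and 215 CPM). *Eif4h* (375, 432 and 498 CPM) also overlapped Scramble siRNA B (385, 382 and 382 CPM).

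The 4E-BPs bind eIF4E and keep it from eIF4G until mTORC1 phosphorylates them. *Eif4ebp1* was at 112, 150.4 and 128 CPM with Scramble siRNA A, 140.3, 148 and 169 CPM with *Fmr1* siRNA A and 96.5, 86.0 and 73.3 CPM with *Zfp598* siRNA A. For the B siRNAs the values were 138, 150.3 and 171 CPM with Scramble siRNA B, 80.9, 95.9 and 91.1 CPM with *Fmr1* siRNA B and 104, 110.5 and 99.7 CPM with *Zfp598* siRNA B. It was low in 3 of the 4 KD groups, and with *Fmr1* siRNA A it overlapped the Scramble range. The log2 fold changes were -0.78 (edgeR adjusted p = 5.52e-05) with *Fmr1* siRNA B, -0.60 (edgeR adjusted p = 0.00212) with *Zfp598* siRNA A and -0.55 (edgeR adjusted p = 0.00137) with *Zfp598* siRNA B, against 0.23 (edgeR adjusted p = 0.168) with *Fmr1* siRNA A. The *Zfp598* siRNA effects differed by 0.05 (edgeR adjusted p = 0.855), and the pooled *Zfp598* KD change was -0.58 (standard error 0.160, edgeR adjusted p = 0.0636), which missed the threshold although all 6 *Zfp598* KD libraries lay below all 6 Scramble libraries. The *Zfp598* siRNA A call was lost with only the compared groups in the fit, and with A1 as the only *Zfp598* siRNA A library the change was -0.44. *Eif4ebp2*, the form most studied in neurons, rose with *Fmr1* siRNA A by 0.32 (edgeR adjusted p = 0.0268) and fell with *Fmr1* siRNA B, at -0.64 (edgeR adjusted p = 1.09e-04). Its levels were 225, 185 and 222 CPM with Scramble siRNA A, 260.4, 263 and 264 CPM with *Fmr1* siRNA A, 282, 278 and 298 CPM with Scramble siRNA B and 175, 192 and 184 CPM with *Fmr1* siRNA B. The call with *Fmr1* siRNA A was lost in 5 of 24 alternatives and that with *Fmr1* siRNA B in 0. *Eif4ebp2* also fell with *Zfp598* siRNA B, at -0.28, to 228, 248 and 231 CPM.

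*Eif5* encodes the factor that triggers GTP hydrolysis on eIF2 at the start codon. It fell with *Fmr1* siRNA A, at -0.38 (edgeR adjusted p = 0.00193) and rose with *Zfp598* siRNA B by 0.63 (standard error 0.0821, edgeR adjusted p = 1.03e-05). The levels were 257, 208 and 225 CPM with Scramble siRNA A, 174, 178 and 179 CPM with *Fmr1* siRNA A, 195, 171 and 175 CPM with Scramble siRNA B and 269.6, 283 and 287 CPM with *Zfp598* siRNA B. *Zfp598* siRNA B was the only group wholly above all 6 Scramble libraries. *Eif5a*, whose hypusine-bearing product eases peptide bond formation at slow sequences, rose with *Fmr1* siRNA A by 0.39 (edgeR adjusted p = 0.00187) and not with the others (-0.18, -0.23 and 0.03 on the log2 scale). Its *Fmr1* siRNA A levels (382, 362 and 371 CPM) overlapped Scramble siRNA B (319, 322 and 374 CPM). Its paralog *Eif5a2* had opposite calls for the *Fmr1* siRNAs, 0.60 (edgeR adjusted p = 0.0116) with siRNA A and -0.59 (edgeR adjusted p = 0.0141) with siRNA B, at 56.4, 57.0 and 41.1 CPM and 30.6, 28.6 and 26.8 CPM against 30.5, 41.1 and 30.1 CPM and 43.4, 43.3 and 42.8 CPM in the Scramble groups. *Eif5a2* also fell with *Zfp598* siRNA B, to 35.4, 29.3 and 29.1 CPM. *Eif5b*, which joins the ribosomal subunits, fell with *Zfp598* siRNA B, at -0.29 (edgeR adjusted p = 0.00563). *Eif6*, which keeps free large subunits apart from small ones, passed in no KD comparison, and its pooled changes were 0.30 and 0.38 with standard errors of 0.184 and 0.185.

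Among the elongation factors, the abundant ones changed little when the siRNAs were pooled. *Eef1a1* was at 6904 ± 572 CPM, 6884 ± 686 CPM and 7386 ± 1329 CPM (SD, n = 6) in Scramble, *Fmr1* and *Zfp598* KD, with pooled changes of 0.00 and 0.10 on the log2 scale (edgeR adjusted p = 0.990 and 0.708). Between the *Zfp598* siRNAs the difference of *Eef1a1* passed. Its levels were 7130, 9279 and 8703 CPM with siRNA A and 5905, 6356 and 6942 CPM with siRNA B. *Zfp598* replicates A2 and A3 held the highest values of the 18 libraries. *Eef2* was at 6807 ± 608 CPM, 6296 ± 498 CPM and 6783 ± 339 CPM (SD, n = 6), and fell with *Fmr1* siRNA B, at -0.33 (edgeR adjusted p = 0.00419), from 7057, 7498 and 7468 CPM to 5623, 6021 and 5935 CPM, with no overlap. *Eef1a2*, the eEF1A form of neurons and muscle, fell with *Fmr1* siRNA A, at -0.30 (edgeR adjusted p = 0.00888), and *Eef1g*, a subunit of the exchange factor that reloads eEF1A, fell with *Zfp598* siRNA B. *Eef1a2* with *Fmr1* siRNA A (252, 258 and 273 CPM) overlapped Scramble siRNA B (262, 296 and 283 CPM). *Eef1g* with *Zfp598* siRNA B (477, 500 and 550 CPM) overlapped Scramble siRNA A (676, 498 and 665 CPM).

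*Eef2k* encodes the kinase that inactivates eEF2. It was at 50.5, 63.4 and 58.7 CPM with Scramble siRNA A and 32.9, 37.3 and 34.0 CPM with *Fmr1* siRNA A, a log2 change of -0.73 (standard error 0.101, edgeR adjusted p = 1.88e-05). With *Fmr1* siRNA B it was at 44.0, 50.9 and 42.7 CPM against 47.3, 48.4 and 43.3 CPM, a change of -0.01 (edgeR adjusted p = 0.939), and the siRNA effects differed by 0.72 (edgeR adjusted p = 9.11e-04). The enzymes that methylate elongation factors were also counted by the rule. Of these, *Eef2kmt* rose with *Fmr1* siRNA A (0.54, edgeR adjusted p = 0.00900) and fell with *Zfp598* siRNA B (-0.66, edgeR adjusted p = 0.00223), *Eef1akmt1* rose with *Fmr1* siRNA B (0.52, edgeR adjusted p = 0.0342) and *Zfp598* siRNA B (0.58, edgeR adjusted p = 0.0160), and *Eef1akmt4* rose with *Fmr1* siRNA A (0.65, edgeR adjusted p = 0.0180). All 3 were low, between 3.54 and 19.1 CPM. Genes on the opposite strand cover 60.4% of the exon bases of *Eef2kmt*, and genes on either strand cover 50.1% of those of *Eef1akmt4*.

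The 3 release factor genes changed little with the KD siRNAs. *Etf1*, which encodes eRF1, had log2 fold changes of 0.11, -0.14, -0.18 and 0.12 (*Fmr1* siRNA A and B, then *Zfp598* siRNA A and B; standard errors 0.0693, 0.0695, 0.0700 and 0.0695). For *Gspt1* they were -0.12, -0.09, -0.07 and 0.13 (standard errors 0.0728, 0.0726, 0.0733 and 0.0726). For its rare paralog *Gspt2*, at 4.66 to 7.82 CPM, they were 0.02, 0.11, 0.24 and 0.21 (standard errors 0.197, 0.190, 0.204 and 0.192). The lowest edgeR adjusted p among these 12 values was that of *Etf1* with *Zfp598* siRNA A, 0.0954. Between the siRNAs of 1 target *Etf1* did differ, by -0.45 (edgeR adjusted p = 6.62e-05) for *Fmr1* (siRNA B minus siRNA A) and -0.20 (edgeR adjusted p = 0.0410) for Scramble, and its *Zfp598* KD effect differed between the siRNAs by 0.30 (edgeR adjusted p = 0.0325).

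*Pabpc1* and *Pabpc4* encode cytoplasmic poly(A)-binding proteins, which join the mRNA's tail to eIF4G. Both rose with *Fmr1* siRNA A and fell with *Zfp598* siRNA B. For *Pabpc4* the levels were 71.4, 86.2 and 82.4 CPM with Scramble siRNA A, 122, 118 and 121 CPM with *Fmr1* siRNA A and 91.1, 94.8 and 77.2 CPM with *Zfp598* siRNA A. With siRNA B they were 99.3, 102 and 124 CPM with Scramble siRNA B, 102, 102 and 108 CPM with *Fmr1* siRNA B and 57.3, 67.7 and 64.6 CPM with *Zfp598* siRNA B. The *Fmr1* siRNA A libraries lay above all of Scramble siRNA A and the *Zfp598* siRNA B libraries below all 15 others. The changes were 0.59 (standard error 0.0995, edgeR adjusted p = 1.86e-04) and -0.78 (standard error 0.101, edgeR adjusted p = 9.82e-06). For *Pabpc1* they were 0.43 (edgeR adjusted p = 0.00755), from 815 ± 67.5 CPM to 1102 ± 40.7 CPM, and -0.53 (edgeR adjusted p = 0.00165), from 1145 ± 66.2 CPM to 795 ± 29.9 CPM (SD, n = 3). With *Fmr1* siRNA B and *Zfp598* siRNA A the values were -0.06 and 0.14 for *Pabpc4* and -0.25 and 0.15 for *Pabpc1* (edgeR adjusted p = 0.701, 0.416, 0.123 and 0.433). Both genes were higher with Scramble siRNA B than with Scramble siRNA A, by 0.49 and 0.44 on the log2 scale.

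**Figure D3:**
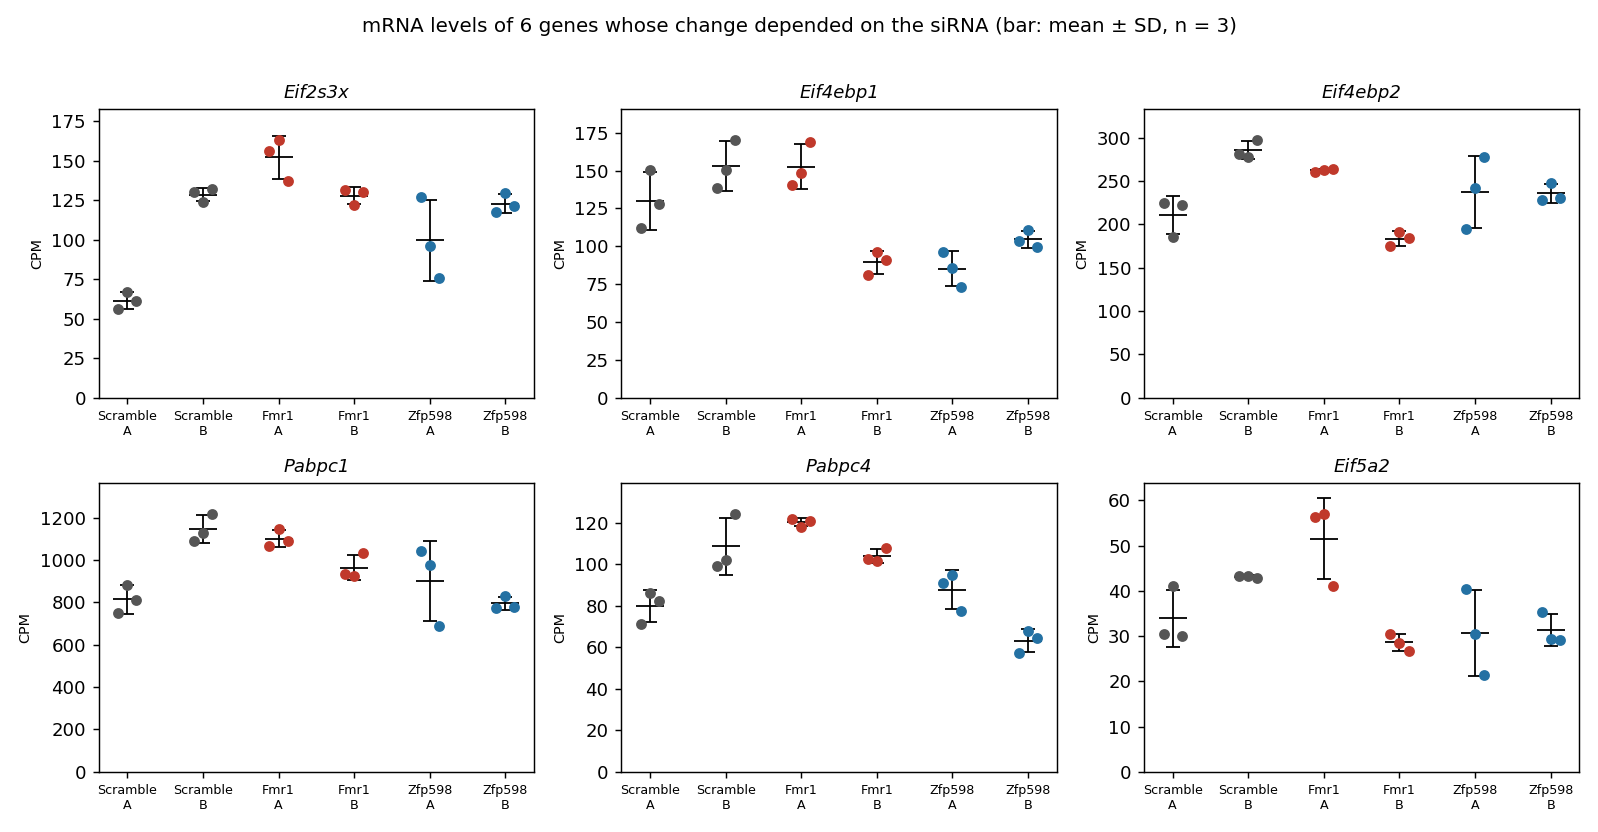
Points give the CPM of each library (3 per siRNA) and bars the mean ± SD (n = 3) for 6 genes, with an axis from 0. *Eif2s3x* is lowest with Scramble siRNA A, *Pabpc4* is lowest with *Zfp598* siRNA B, and *Eif4ebp2* and *Eif5a2* differ between the *Fmr1* siRNAs more than between Scramble and *Fmr1* KD as a whole.

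Members also differed between the siRNAs of 1 target. Scramble siRNA B against Scramble siRNA A gave 18 members higher and 8 lower (22.7% of all tested genes in either direction, 10.4% higher and 12.2% lower), *Fmr1* siRNA B against A gave 7 higher and 15 lower (24.3%, with 13.3% higher and 11.1% lower), and *Zfp598* siRNA B against A gave 12 higher and 18 lower (35.3%, with 15.6% higher and 19.7% lower). After *Eif2s3x*, the largest Scramble differences were those of *Eef1akmt1* (-0.65) and *Eif3l* (0.60 on the log2 scale). For *Fmr1* the largest that passed were *Eif5a2* (-0.85), *Eif4e3* (0.82), *Eif4ebp1* (-0.77) and *Eif6* (-0.77). For *Zfp598*, *Eif4e* was 0.64 higher with siRNA B (edgeR adjusted p = 8.96e-04). Without *Zfp598* replicates A2 and A3, 14 members passed rather than 30, in a comparison of 3 libraries with 1 whose spread is taken from the other groups.

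The effect of a KD differed between siRNA A and siRNA B for 24 of 66 members in *Fmr1* KD (5 with the higher value for siRNA B and 19 with the lower, all tested genes 21.8%, 12.2% and 9.65%) and for 21 of 66 in *Zfp598* KD (6 and 15, all tested genes 21.9%, 10.1% and 11.9%). Among the 4 members called in pooled *Fmr1* KD, the difference passed for *Eif1* (-0.56, edgeR adjusted p = 0.00341) and *Eif3c* (-0.56, edgeR adjusted p = 0.00126). It was -0.09 (edgeR adjusted p = 0.703) for *Eif2s2* and 0.08 (edgeR adjusted p = 0.659) for *Eif4b*. The difference compares 4 groups, so the Scramble siRNAs enter it. For *Eif2s3x* it passed at -1.32 (edgeR adjusted p = 1.69e-05), with *Fmr1* levels of 152 ± 13.5 CPM and 128 ± 5.29 CPM (SD, n = 3) for siRNA A and B and Scramble levels of 61.3 ± 5.56 CPM and 128 ± 4.31 CPM (SD, n = 3).

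**Figure D4:**
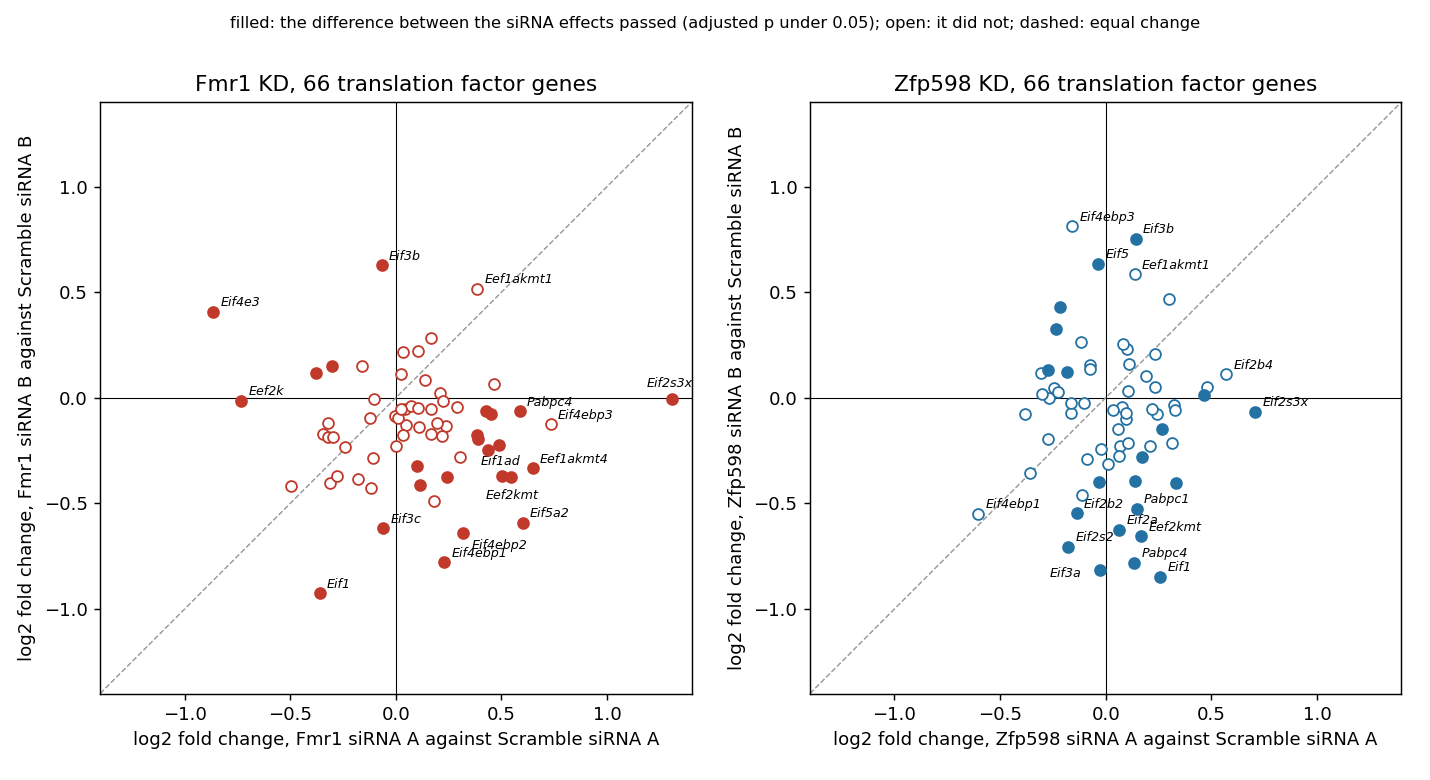
Each point is 1 of the 66 genes, placed by its log2 fold change with siRNA A (horizontal) and siRNA B (vertical) against the Scramble siRNA of the same letter, for *Fmr1* KD (left) and *Zfp598* KD (right), and filled where the difference between the siRNA effects passed. Genes beyond 0.5 on either axis are named. Genes off the dashed line changed unequally with the siRNAs, as *Eif2s3x* did, and *Eif1* with *Fmr1* KD and *Eif4ebp1* with *Zfp598* KD lie in the lower left of their panels.

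Genes that regulate or modify these factors were described from a list of 27, all tested. *Fmr1* siRNA A gave 4 higher and 2 lower, *Fmr1* siRNA B 1 higher and 5 lower, *Zfp598* siRNA A 1 and 1, and *Zfp598* siRNA B 2 higher and 3 lower. In either direction these are 22.2%, 22.2%, 7.41% and 18.5% of the 27, against 23.6%, 22.7%, 11.9% and 26.8% of all tested genes. *Mknk2*, a kinase of eIF4E, fell with *Fmr1* siRNA A, at -1.05 (edgeR adjusted p = 2.43e-07), and rose with *Fmr1* siRNA B, at 0.30 (edgeR adjusted p = 0.0295), with a difference between the siRNAs of 1.35 (edgeR adjusted p = 9.23e-07). On the same list *Mknk1* did not follow it, at 0.02 with *Fmr1* siRNA A (edgeR adjusted p = 0.922) and -0.54 with siRNA B (edgeR adjusted p = 2.28e-04). With *Zfp598* siRNA A and B *Mknk1* changed by -0.84 and 0.08 (edgeR adjusted p = 1.09e-05 and 0.552). *Ppp1r15a*, whose product directs a phosphatase to eIF2, rose with *Fmr1* siRNA A by 0.59 (edgeR adjusted p = 0.0167) and fell with *Fmr1* siRNA B, at -1.61 (edgeR adjusted p = 2.29e-06). *Ppp1r15b* fell with both, at -0.33 and -0.38 (edgeR adjusted p = 0.00594 and 0.00213). In pooled *Fmr1* KD, *Ppp1r15b* and *Pdcd4* were lower, at -0.36 and -0.34 (edgeR adjusted p = 0.00600 and 0.0389). Of 22 genes for aminoacyl-tRNA synthetases and proteins of their complex, 8 rose with *Fmr1* siRNA A (median log2 change 0.13), 14 fell with *Fmr1* siRNA B (-0.36), 4 fell with *Zfp598* siRNA A (-0.06), and 2 rose and 10 fell with *Zfp598* siRNA B (-0.28). In either direction these are 36.4%, 63.6%, 18.2% and 54.5% of the 22, against the same shares of all tested genes (23.6%, 22.7%, 11.9% and 26.8%). Of 23 tested targets of ATF4, the transcription factor whose mRNA is translated when eIF2 is phosphorylated, 17 fell and 1 rose with *Fmr1* siRNA B (median -0.55), and 13 fell and 3 rose with *Zfp598* siRNA B (-0.46). With siRNA A the counts were 4 higher and 3 lower for *Fmr1* (0.05) and 1 higher and 9 lower for *Zfp598* (-0.10). In either direction these are 30.4% and 78.3% of the 23 with *Fmr1* siRNA A and B and 43.5% and 69.6% with *Zfp598* siRNA A and B. *Fmr1* siRNA B and *Zfp598* siRNA B were measured against the same Scramble siRNA B libraries. Of 10 members whose mRNAs are known to start with a terminal oligopyrimidine tract, 3 fell with *Zfp598* siRNA B (median -0.22), 2 with *Fmr1* siRNA B (-0.13), and 1 rose and 2 fell with *Fmr1* siRNA A (0.06). These are 30.0%, 20.0% and 30.0% of the 10 in either direction, against 26.8%, 22.7% and 23.6% of all tested genes.

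Where 2 genes encode forms of 1 factor, the rarer form's share per kb of canonical transcript is given as a description. *Eif1b* made up 2.13% to 5.85% of *Eif1* and *Eif1b* over the 18 libraries, *Eif5a2* 2.09% to 4.08% of the eIF5A pair and *Gspt2* 8.55% to 14.4% of the eRF3 pair. *Eif4a2* ranged from 42.5% to 62.1% of the eIF4A pair. *Eif4e3* ranged from 14.1% to 34.3% of *Eif4e* and *Eif4e3*, with a mean of 16.1% with *Fmr1* siRNA A against 28.5% with Scramble siRNA A. These shares rest on 1 transcript length per gene, and how reads that match several places were counted is not given in the sources used here.

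The 21 members below the filter were 16 numbered copies of *Eif1ad*, with at most 13 counts over all 18 libraries, and *Eef1ece2*, *Eif2s3y*, *Eif4a3l1*, *Eif4a3l2* and *Eif4e1b*. Of the 21, 6 had 0 counts in every library. A count of 0 allows up to 3 counts, for counting error only. Taken from total counts without TMM normalisation, 3 counts are 0.195 to 0.391 CPM depending on the library. On the TMM-normalised scale of the other levels, 3 counts in *Zfp598* KD replicate A3 are 0.534 CPM. *Eif2s3y* is the Y-linked copy of the eIF2 gamma gene, on chromosome Y from 1008409 to 1047462. It had 56 counts in *Fmr1* KD replicate B1, or 3.78 CPM, and 0 in the other 17 libraries. That library also held the Y-linked and stem cell marker counts given above. Without it, *Fmr1* siRNA B gave 1 member higher and 11 lower, all 12 among the 14 called with it, and pooled *Fmr1* KD gave 2 members, *Eif1* and *Eif4b*.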

How the data were processed

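Total RNA of 18 N2A samples was depleted of rRNA and sequenced. Per the labels and the study's methods, the authors used TrimGalore for trimming, FastQC for quality control, STAR for alignment (GRCm39) and featureCounts to assign reads to exons. The deposited values are raw read counts per gene and library, not normalised and not pooled. Tool versions, the annotation release, the strand setting and the treatment of reads with several matches are not given in the sources used here. No molecular identifiers were used, so limits from counts cover counting error only.

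Counts were tested with edgeR 4.0.16 in R 4.3.3 (quasi-likelihood F test, TMM, filterByExpr with a minimum count of 10 and a minimum total of 15), with Benjamini-Hochberg adjustment over 17901 genes. All 18 libraries entered 1 fit with 6 siRNA groups, and 1 fit with 3 conditions, n = 6, as the study pooled the siRNAs. Standard errors are the log2 fold change divided by the square root of F. The scripts were tested on simulated counts. Totals were 7674724 to 15414590 per library, and no pair of libraries of the same siRNA, of 18 pairs, agreed within sampling noise. Symbols came from GENCODE M39, which held 54749 of the 55414 identifiers, and 18139 genes were at 0 in every library.

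Named genes were the core subunits (eIF2, eIF4E, eIF4A, eIF4G, 4E-BP, eIF5, eIF5A, eIF5B, eIF6, eEF1A, eEF2 and its kinase, release factors, PABP), up to 5 members with the largest passing rise and fall in each comparison, those of highest and lowest variation and the 5 highest levels per length. Other members were named to account for counts, after their values were seen. Members and lists were chosen with earlier results of these data known. Replicate numbers were not taken to pair libraries across groups. Alternatives were DESeq2 1.42.0, no filter, a 2-fold criterion, blocks for replicate number and siRNA letter, counts summed per siRNA, all Scramble libraries as control, only the compared groups in the fit, and each library left out. After seeing the data, *Fmr1* KD replicate B1 was left out for its marker counts and levels were also scaled by canonical transcript length.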

Additional observations from a re-analysis of the deposited data

Results flagged for a closer look

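*Eif2s3y* had 3.78 CPM in *Fmr1* KD replicate B1 and 0 in the 5 other *Fmr1* KD libraries, which set this library apart. It was the only case flagged as an outlier in 133 gene-by-condition groups of 6 libraries. Any single value above 5 values of 0 would be flagged, and each group pools 2 siRNAs, so no chance rate applies. The same library held counts of other Y-linked and of stem cell genes.

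The effect of *Fmr1* KD differed between its siRNAs for 24 of 66 members, by the interaction in edgeR's quasi-likelihood test. Each is given with the log2 difference (siRNA B minus siRNA A) and the adjusted p. It was higher with siRNA B for *Eif4e3* (1.27, 3.01e-04), *Eef2k* (0.72, 9.11e-04), *Eif3b* (0.69, 3.42e-05), *Eif5* (0.49, 0.00392) and *Eef1a2* (0.46, 0.00623). It was lower with siRNA B for *Eif2s3x* (-1.32, 1.69e-05), *Eif5a2* (-1.19, 9.50e-04), *Eif4ebp1* (-1.01, 1.29e-04), *Eef1akmt4* (-0.98, 0.0119), *Eif4ebp2* (-0.96, 5.55e-05), *Eef2kmt* (-0.92, 0.00239), *Eif1ad* (-0.87, 0.00272), *Eif1a* (-0.71, 0.00199), *Pabpc1* (-0.68, 0.00372), *Pabpc4* (-0.65, 0.00197), *Eif3d* (-0.62, 0.0138), *Eif2s1* (-0.58, 0.00696), *Eif1* (-0.56, 0.00341), *Eif5a* (-0.56, 0.00155), *Eif3c* (-0.56, 0.00126), *Eif3l* (-0.53, 0.00881), *Eif2b2* (-0.53, 0.00966), *Eif2b1* (-0.49, 0.0313) and *Eef2* (-0.43, 0.00728).

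The effect of *Zfp598* KD differed in the same test for 21 of 66 members. It was higher with siRNA B for *Eif5* (0.67, 3.22e-04), *Eif1ad* (0.65, 0.0256), *Eif3b* (0.61, 1.73e-04), *Eif4g1* (0.56, 0.00143), *Eif4g3* (0.41, 0.0144) and *Etf1* (0.30, 0.0325). It was lower with siRNA B for *Eif1* (-1.11, 4.85e-06), *Pabpc4* (-0.92, 1.03e-04), *Eef2kmt* (-0.83, 0.00815), *Eif3a* (-0.79, 3.39e-04), *Eif2s3x* (-0.77, 0.00342), *Eef1g* (-0.74, 0.00326), *Eif2a* (-0.69, 0.0128), *Pabpc1* (-0.67, 0.00450), *Eif4b* (-0.53, 7.81e-04), *Eif2s2* (-0.53, 0.00996), *Eif4h* (-0.45, 0.0165), *Eif4ebp2* (-0.45, 0.0294), *Eif3h* (-0.42, 0.0246), *Eif2b2* (-0.41, 0.0454) and *Eif3c* (-0.37, 0.0253). Both sets of differences contain the same Scramble libraries.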

How the results depend on the processing

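Counts are of members past the threshold, of 66. Of 4572 values of named genes under an alternative, 4274 kept their side of the threshold, 284 lost the call and 14 gained it. Of the values called in either analysis, 0 turned direction. Values called in neither could change sign and still count as kept. Without the filter, *Fmr1* KD gave 2, *Zfp598* KD 0 (edgeR, 13 at unadjusted p under 0.05) and *Zfp598* siRNA A 9. DESeq2 gave 4 for *Zfp598* KD and 11 for *Zfp598* siRNA A. A 2-fold criterion left 0 for either KD pooled, 1 for *Fmr1* siRNA A, 0 for *Fmr1* siRNA B and both *Zfp598* siRNAs, 1, 0 and 1 between the Scramble, *Fmr1* and *Zfp598* siRNAs, and 4 and 1 for the differing *Fmr1* and *Zfp598* effects. A block for the siRNA letter gave 9 for *Fmr1* KD (2 higher) and 4 for *Zfp598* KD (1 higher), while counts summed per siRNA gave 0 for both (edgeR, 1 and 0 at unadjusted p under 0.05). With all 6 Scramble libraries as control *Zfp598* siRNA A gave 15. With only the compared groups in the fit there were 1 for *Zfp598* KD, 22 for *Fmr1* siRNA B, 0 for *Zfp598* siRNA A (edgeR, 4 at unadjusted p under 0.05) and 17 between the *Zfp598* siRNAs. Without *Zfp598* replicates A2 and A3, which leaves 1 library of that siRNA assumed to vary like the other groups, there were 4 for *Zfp598* KD and 14 between the *Zfp598* siRNAs. Without *Fmr1* replicate B1 there were 2 for *Fmr1* KD. The cause was not tested.

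Deviations from the siRNA group's mean correlated over 0.1 in 16 of 45 pairs of samples sharing a replicate number (median 0.0474). All pairs of replicate 3 were positive, from 0.0547 to 0.275, and those of replicates 1 and 2 ran from -0.399 to 0.338. Whether libraries were paired by number was not tested, and the main fits used no pairing. The replicate block gave 2 for *Fmr1* KD and 0 for *Zfp598* KD (edgeR, 10 at unadjusted p under 0.05), and moved no other count by more than 1.5 times.

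Leaving out 1 library gave 44 to 56 members among the 6 siRNAs, 2 to 4 for *Fmr1* KD, 0 to 4 for *Zfp598* KD, 17 to 27 and 12 to 19 for *Fmr1* siRNA A and B, 3 to 22 and 15 to 26 for *Zfp598* siRNA A and B, 15 to 30, 14 to 30 and 23 to 39 between the Scramble, *Fmr1* and *Zfp598* siRNAs, and 23 to 27 and 14 to 30 for the differing *Fmr1* and *Zfp598* effects. *Fmr1* KD gave 2 without Scramble B1 or B2 or *Fmr1* A1, A3 or B1. *Zfp598* KD gave 0 without Scramble A2, B1, B2 or B3 or any *Zfp598* siRNA B library, 1 without *Fmr1* A1, A2 or B2 or *Zfp598* A3, and 4 without Scramble A1 or *Zfp598* A1. *Zfp598* siRNA A gave 8 without Scramble A1 and 22 without *Zfp598* A1. The Scramble siRNAs gave 15 without Scramble B1 or B3 and 16 without A1 or A3, and the *Fmr1* siRNAs 14 without *Fmr1* A1.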
